A study of Mus musculus with 10 samples.

Results

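The 10 genes Id1, Id2, Id3, Id4, Hes1, Hey1, Hes6, Twist1, Msc and Bhlhe40, helix-loop-helix regulators that mostly repress transcription, were followed in mouse C2C12 cells that received either a synthetic mimic of miR-142-3p or a scrambled RNA. They were chosen by name, from all non-control probes whose gene name on the array was one of the 10, out of 34607 gene names in all, and each was read by 1 probe. C2C12 is an established myoblast line that fuses into myotubes when induced to differentiate. In both groups the synthetic RNA was given at 150 nM with Lipofectamine 2000 to cells grown in serum-containing growth medium, and RNA was taken after 72 hours. The labels put the transfection efficiency at about 60%, so an RNA sample may also have held untransfected cells. The share of such cells was not measured here, and how it relates to the folds below was not tested. The labels list 6 mimic and 4 scramble samples, hybridised to 1-colour Agilent arrays, and the titles of the scramble samples alone carry a remark about re-analysis that no source used here explains.

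The headers place the 10 scans on a single slide with 5 arrays, all scanned on 2 days. Scans of the same position shared 21 to 77 spots marked as non-uniform, and no other pair of scans shared more than 2. The 2 scans of a position were therefore averaged and counted as 1 array, which left 3 mimic arrays (replicates 1 and 4, 2 and 5, 3 and 6) and 2 scramble arrays (replicates 1 and 3, 2 and 4). Nothing says that the arrays held RNA of separate cultures, and the p-values rest on how far these 5 arrays differ, which may be a technical spread. Of the 59305 non-control spots, 25.4% to 34.6% per scan were well above background by the scanner software's own mark. A level below is log2 of the processed spot signal minus the 75th percentile of the scan, and it is compared between groups for 1 probe at a time. Levels of different probes are not ranked against each other, and where 2 probes are subtracted within an array only the change of that ratio between groups is read. Differences are mimic minus scramble on that log2 scale with the standard error (SE) of limma's moderated test, and a gene was called at an adjusted p (Benjamini-Hochberg over the 13677 genes tested) under 0.05.

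Helix-loop-helix proteins act as dimers. MyoD and its relatives Myf5, myogenin and Myf6 switch on muscle genes by binding the short DNA word called the E-box together with an E protein (products of Tcf3, Tcf4 and Tcf12). Id proteins lack the basic region that touches DNA and hold E proteins in inactive dimers. Hes and Hey proteins bind DNA and recruit corepressors, mostly downstream of Notch. Twist1, musculin (Msc, also called MyoR) and Bhlhe40 are also known to oppose MyoD. Id1, Id2 and Id3 are textbook targets of BMP signalling through SMAD proteins, and Hes1 and Hey1 are textbook targets of Notch through the DNA-binding protein RBPJ.

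The mature sequence of the transfected microRNA and the DNA upstream of 3 members are shown because Id3 was called and its close relative Id2 was not, and because the arrays of Hes6 were spread. Sequences are from RefSeq (GRCm38.p6), which gave the 250 bases before the gene start for 5 of the 10 members (Id2, Id3, Id4, Hes6 and Twist1). Capitals in the microRNA mark the seed, bases 2 to 8. Capitals in the DNA mark matches to 4 motifs, each searched on both strands. The E-box is CANNTG, which reads the same on either strand, and it is bound by MyoD with its partner. The SMAD element is CAGAC on one strand, which is read on the opposite strand as GTCTG. The GC element bound by SMAD proteins downstream of BMP is the palindrome GGCGCC. The core site of the Notch effector RBPJ is GTGGGAA on one strand, which is read on the opposite strand as TTCCCAC. The motifs share no letters within the windows shown.
mmu-miR-142a-3p: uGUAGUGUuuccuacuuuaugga
Id3, chr4:136143572-136143821, plus strand: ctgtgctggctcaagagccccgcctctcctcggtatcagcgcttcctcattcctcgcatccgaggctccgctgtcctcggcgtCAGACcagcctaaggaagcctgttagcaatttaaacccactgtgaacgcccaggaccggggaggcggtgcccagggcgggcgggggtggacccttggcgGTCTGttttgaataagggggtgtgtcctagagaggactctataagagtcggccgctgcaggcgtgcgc
Id2, chr12:25096093-25096342, minus strand: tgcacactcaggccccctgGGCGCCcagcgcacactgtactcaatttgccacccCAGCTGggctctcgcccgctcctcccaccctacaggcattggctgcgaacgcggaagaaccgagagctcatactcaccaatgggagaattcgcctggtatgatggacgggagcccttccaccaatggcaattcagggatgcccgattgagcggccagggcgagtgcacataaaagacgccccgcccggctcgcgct
Hes6, chr1:91414039-91414288, minus strand: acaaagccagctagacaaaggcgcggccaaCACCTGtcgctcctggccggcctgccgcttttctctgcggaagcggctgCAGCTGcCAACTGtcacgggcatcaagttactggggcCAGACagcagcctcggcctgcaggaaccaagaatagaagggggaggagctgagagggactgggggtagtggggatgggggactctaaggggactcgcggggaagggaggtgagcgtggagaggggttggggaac
The Id3 window held 2 SMAD elements and no E-box or GC element. The Id2 window held 1 GC element and 1 E-box, 225 and 190 bases before the start, and no SMAD element. The Hes6 window held 3 E-boxes and 1 SMAD element. RefSeq has a second Hes6 start, whose window (chr1:91413223-91413472, minus strand, not shown) held 1 E-box and 1 SMAD element. The RBPJ core was found in none of the 3 windows shown. Among 27025 promoters of the same length the E-box was present in 66.0%, the SMAD element in 42.1%, the GC element in 9.54% and the RBPJ core in 5.41%, so the first 2 are common words and a match is a description of the letters only. The site that pairs with the seed, ACACTAC, was in 0 of the 10 member probes and in 0.259% of the 55681 probes of the array, and the probes cover only a short stretch of each transcript.

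Of the 10 members, 6 were measured: Id1, Id2, Id3, Hey1, Hes6 and Bhlhe40 were well above background on all 10 scans. For Id4, Hes1, Twist1 and Msc no scan was well above background. Of the 6 measured members 2 were called lower with the mimic, Hey1 and Id3, and 0 were called higher, where 3.88% of all genes tested were called lower and 5.86% higher (9.74% in either direction). At an unadjusted p under 0.05 there were 3, all lower, Id1 being the third, where 9.76% of all genes tested were lower and 15.5% higher at that level (25.3% in either direction). The mimic and scramble arrays did not overlap for 4 of the 6, lower for Id1, Id3 and Hey1 and higher for Bhlhe40, where 42.6% of genes had arrays that did not overlap, 16.7% lower and 25.8% higher. The median difference of the 6 was −0.55, against 0.093 over all genes tested. In these bulk RNA samples fewer cells expressing a gene and less RNA per cell cannot be told apart.

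**Figure D1:**
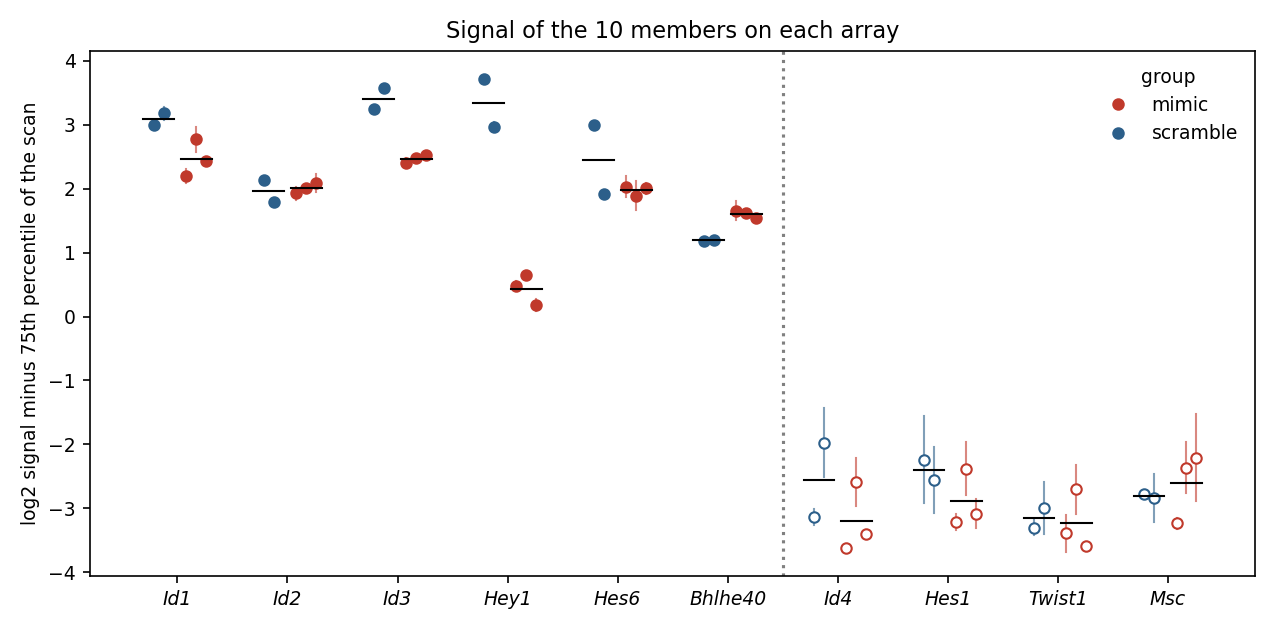
Level of each member (log2 signal minus the scan's 75th percentile) on the 3 mimic arrays (red) and the 2 scramble arrays (blue). Points are the mean of an array's 2 scans, thin lines join the 2 scans, black bars are group means, and open points are probes with no scan well above background. Hey1 sits between 0.18 and 0.64 on the mimic arrays and at 2.97 and 3.72 on the scramble arrays, while the Id2 arrays overlap.

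Hey1, a Notch-responsive repressor that binds DNA and restrains myogenic factors, had the lowest difference of the 6. Its probe lies at chr3:8663432-8663491 on the minus strand (mm9, as the array annotation gives it; exon and UTR annotation was not used here). Its level was 0.48, 0.64 and 0.18 on mimic arrays 1 to 3 and 3.72 and 2.97 on scramble arrays 1 and 2. Every mimic array lay below both scramble arrays by more than the gap between the 2 scramble arrays. The group means were 0.44 ± 0.24 (SD, n = 3) and 3.34 ± 0.53 (SD, n = 2), a difference of −2.91 ± 0.27 (SE), or 7.50-fold lower, with 95% limits of −3.53 and −2.28 and an adjusted p of 0.000351 in limma. Counted from the lowest, its difference stood at the 0.603 percentile (mid-rank) of all genes tested. On the first row of the slide, which held mimic arrays 1 and 3 and scramble array 1, the difference was −3.38, and on the second row, with 1 array of each group, it was −2.32. Hey1 was called in all 22 other processing settings, with differences from −3.28 to −2.23.

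Of the Id genes, whose products sequester E proteins, Id3 alone was called. Id3 (probe at chr4:135700075-135700249, plus strand, mm9, an interval longer than the probe) had a level of 2.40, 2.48 and 2.53 on the mimic arrays and of 3.25 and 3.57 on the scramble arrays. The mimic arrays lay close to each other and all below the scramble arrays. The means of 2.47 ± 0.066 (SD, n = 3) and 3.41 ± 0.23 (SD, n = 2) differed by −0.94 ± 0.20 (SE), 1.92-fold lower, with 95% limits of −1.41 and −0.47 and an adjusted p of 0.0246 in limma. This call held in 14 of 22 other settings and the direction in all 22 (−1.10 to −0.78). It was lost without mimic array 1 (adjusted p 0.111 in limma), 2 (0.0861) or 3 (0.0881), without scramble array 2 (0.0714), with the slide row as a block (0.0615), with array-median scaling (0.336) and in both settings without the background filter (0.316 and 0.322). Within the slide rows the difference was −0.78 and −1.09.

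Id1 (chr2:152563083-152563142, plus strand, mm9), the Id gene most often used as a readout of BMP signalling, had a level of 2.20, 2.78 and 2.44 on the mimic arrays and of 2.99 and 3.18 on the scramble arrays. The groups did not overlap, but mimic array 2 lay closer to the scramble arrays than to mimic array 1. The difference of −0.61 ± 0.23 (SE), with 95% limits of −1.15 and −0.082, did not pass the threshold, with an unadjusted p of 0.0285 and an adjusted p of 0.145 in limma. It passed (adjusted p 0.0133 in limma) only when the 10 scans were treated as 10 samples.

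Id2 (chr12:25778904-25778963, minus strand, mm9) had a level of 1.93, 2.01 and 2.09 on the mimic arrays and of 2.13 and 1.79 on the scramble arrays. All 3 mimic arrays lay between the 2 scramble arrays. The difference was 0.048 ± 0.21 (SE), with 95% limits of −0.42 and 0.52 and an adjusted p of 0.914 in limma, so no difference was called, and one within those limits is not excluded. Its sign turned with the percentile taken over bright probes (−0.087) and without scramble array 2 (−0.12). The limits of Id2 leave out the fitted difference of Id3, but the difference between the 2 genes needs its own test.

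That test was made within arrays, where scaling cancels. The level of Id3 minus that of Id2 was 0.43 to 0.47 on the mimic arrays and 1.11 to 1.78 on the scramble arrays, a change of −0.99. The exact permutation test over the 5 arrays gave a two-sided p of 0.1, the smallest it can give with 3 arrays against 2, so it could not reach 0.05. The same comparison of Id1 with Id2 gave a change of −0.66 (exact p 0.2) and of Id1 with Id3 a change of 0.33 (exact p 0.2). Hey1 minus Hes6 changed by −2.43 (exact p 0.1). All 4 ratios had arrays that did not overlap between the groups, and each had an adjusted p of 0.2 over the 4 exact tests. With 3 arrays against 2 none of the 4 exact tests could reach 0.05, so they cannot decide whether these members changed unequally. The share of 42.6% with arrays that did not overlap is for single genes, and the share for ratios was not computed.

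**Figure D2:**
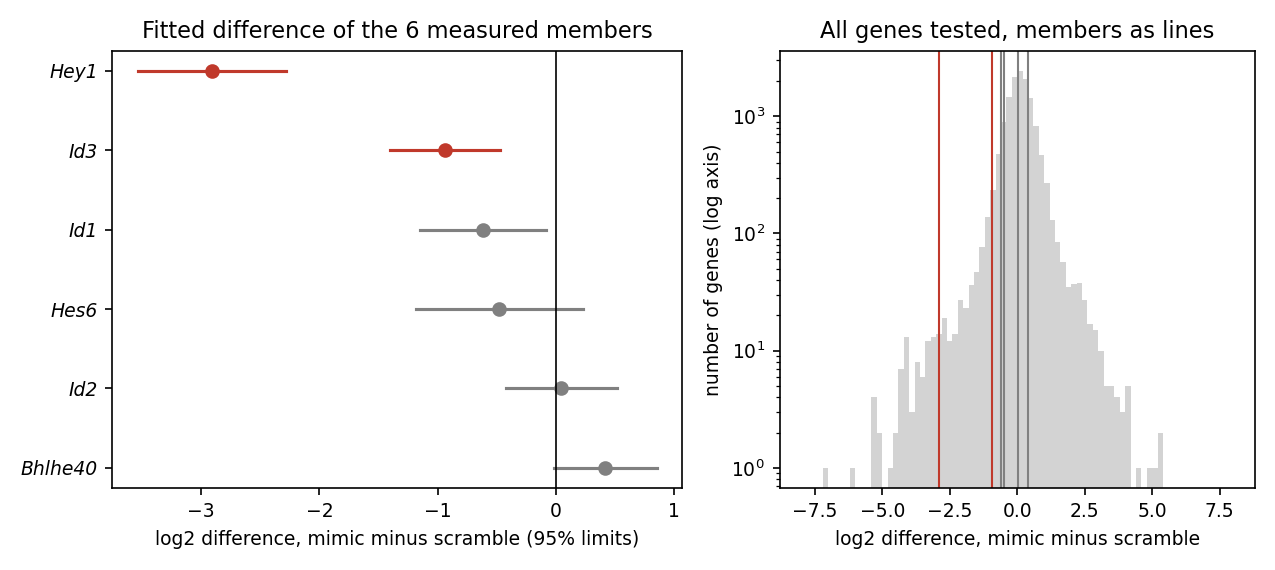
Left, fitted log2 difference (mimic minus scramble) of the 6 measured members with 95% limits, red where called. Right, number of genes (log axis) by log2 difference for all 13677 genes tested, with the members as vertical lines. Hey1 at −2.91 and Id3 at −0.94 have limits below 0, as has Id1 at −0.61, which was not called over all genes, and Id2 at 0.048 lies in the middle of the distribution.

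Hes6 differs in role from the rest, since it is known to antagonise Hes1 and to favour muscle differentiation. Its probe (chr1:93308264-93308323, minus strand, mm9) had a level of 2.03, 1.89 and 2.01 on the mimic arrays and of 2.99 and 1.92 on the scramble arrays. Scramble array 1 stood above all others and scramble array 2 lay within the mimic range. The difference of −0.48 ± 0.31 (SE), with 95% limits of −1.18 and 0.23 and an adjusted p of 0.369 in limma, rested on that 1 array: leaving out scramble array 1 gave 0.059 (adjusted p 0.857), and leaving out scramble array 2 gave −1.02 with a call (adjusted p 0.0288). It was −0.97 in the first slide row and −0.026 in the second.

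Bhlhe40, a basic helix-loop-helix repressor of the clock and stress responses that can bind MyoD, ran the other way. Its probe (chr6:108616309-108616368, plus strand, mm9) had a level of 1.66, 1.63 and 1.55 on the mimic arrays and of 1.19 and 1.20 on the scramble arrays. All 3 mimic arrays lay above both scramble arrays, with little spread in either group. The difference of 0.42 ± 0.19 (SE), with 95% limits of −0.015 and 0.85, had an unadjusted p of 0.0565 and an adjusted p of 0.211 in limma. It was 0.42 and 0.43 in the 2 slide rows. It was called (adjusted p 0.0109) only with the 10 scans as 10 samples.

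The other 4 members had no measurable level on these arrays. Id4 (chr13:48358668-48358727, mm9), the fourth Id gene, ranged from −3.62 to −2.59 on the mimic arrays and from −3.14 to −1.97 on the scramble arrays. Hes1 (chr16:30067820-30067879), the classic Notch target, ranged from −3.21 to −2.38 and from −2.56 to −2.24. Twist1 (chr12:34644411-34644470), a repressor of mesenchymal progenitors, ranged from −3.60 to −2.70 and from −3.30 to −2.995. Msc (chr1:14744315-14744374), a MyoD antagonist of undifferentiated myoblasts, ranged from −3.24 to −2.21 and from −2.84 to −2.78. The lowest signal well above background was between −1.66 and −0.48 on the 5 arrays, above every one of these values. No fold is given for these 4, and their transcripts may be present below what these probes detect.

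The nearest relatives were read from a list of 15 other helix-loop-helix regulators, of which 5 were measured, 1 was called higher and 2 lower, with a median difference of −0.80. Over all genes tested 5.86% were called higher and 3.88% lower, the shares to set beside this count and those of the lists below. Heyl, a paralog of Hey1, was well above background on all 4 scramble scans and on none of the 6 mimic scans. Its level was 2.32 and 1.70 on the scramble arrays and −2.36, −1.58 and −2.21 on the mimic arrays. Set against the lowest measurable signal of each mimic array it was at least 9.54-fold lower (adjusted p 0.000124 in limma), and it was called in all 21 other settings in which it was tested. For Hey2, the other Hey gene, no scan was well above background. Heyl passed the background filter through the scramble scans alone, so it could be tested only because it was high there, and its p rests on mimic readings at background. The same holds for Dll1, Hjv and the MyoD-family target Chrng, which are counted in the lists that follow. Acvr2a, Tnnc1 and Tnni1, also counted there, reached the 4 scans well above background that the filter needs only with their scramble scans. They were well above background on 1, 1 and 3 of 6 mimic scans, and no bound is given for them. The mimic levels of Acvr2a and Tnnc1 are thus mostly readings at background.

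Twist2, a paralog of Twist1 known to block MyoD, rose. Its level was 2.26, 2.65 and 2.66 on the mimic arrays and 1.60 and 1.55 on the scramble arrays, with no overlap. The difference was 0.95 ± 0.21 (SE), 1.93-fold higher, with an adjusted p of 0.0294 in limma, a call that held in 13 of 22 other settings and was lost without mimic array 1, 2 or 3 or scramble array 2 (each without changing direction). Scx, a tendon regulator of the same family, fell by 0.99 ± 0.19 (SE; adjusted p 0.0163 in limma, called in 16 of 22 other settings and lost without any 1 of the mimic arrays). Bhlhe41, the paralog of Bhlhe40, had a difference of −0.80 ± 0.35 (SE; adjusted p 0.196 in limma) and was well above background on only 2 mimic and 2 scramble scans. Hes7, the segmentation clock gene, had a difference of 0.24 ± 0.21 (SE; adjusted p 0.521).

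The partners these regulators act on were split. In a list of 7 MyoD-family and E-protein genes 6 were measured, 0 were called higher and 2 lower. Myod1 had a level of 1.73, 2.07 and 1.86 on the mimic arrays and of 4.70 and 5.58 on the scramble arrays, a difference of −3.25 ± 0.28 (SE; adjusted p 0.000256 in limma). Myog, the gene of myogenin, was −0.79, −0.38 and −0.70 against 6.24 and 6.66, a difference of −7.08 ± 0.23 (SE; adjusted p 1.14e-05), with 5 of 6 mimic scans well above background. Myf5 did not pass the background filter, and Myf6 had a difference of −0.68 ± 0.22 (SE; adjusted p 0.103). The E-protein genes, whose products the Id proteins bind, gave −0.21 ± 0.22 for Tcf3 (adjusted p 0.588), −0.13 ± 0.20 for Tcf4 (0.726) and −0.0052 ± 0.25 for Tcf12 (0.992), all from limma with SE. Another measured probe of Tcf4, and 1 of Tcf12, had the opposite sign.

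Downstream, of 19 genes known to be driven by the MyoD family 18 were measured, 16 were called lower and 0 higher, with a median difference of −3.62 (−3.41 with genes at their bounds). These include Myog itself and Des and Cdh15, which also stand among the myoblast markers. After Myog, Actc1, Tnnc1 and Tnnt1, which code for sarcomere proteins, had the lowest p-values, with differences of −5.37, −5.14 and −4.27, Tnnc1 being well above background on 1 of 6 mimic scans. The 2 not called were Ckm, creatine kinase, at −0.59 ± 0.25 (SE; adjusted p 0.187 in limma), and Chrna1, a receptor subunit of the neuromuscular junction, at −0.71 ± 0.19 (adjusted p 0.0564). Of the helix-loop-helix repressors named above, Hey1, Id3 and Heyl (with mimic readings at background) were called lower in the same comparison as these targets. Twist2 was called higher, and Id1, Id2, Bhlhe40, Bhlhe41 and Hes7 were not called. Outside this tally, the tendon regulator Scx was called lower, and Hes6, which is known to antagonise Hes1, was not called. The calls of Id3, Twist2 and Scx were lost without mimic array 1, 2 or 3.

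**Figure D3:**
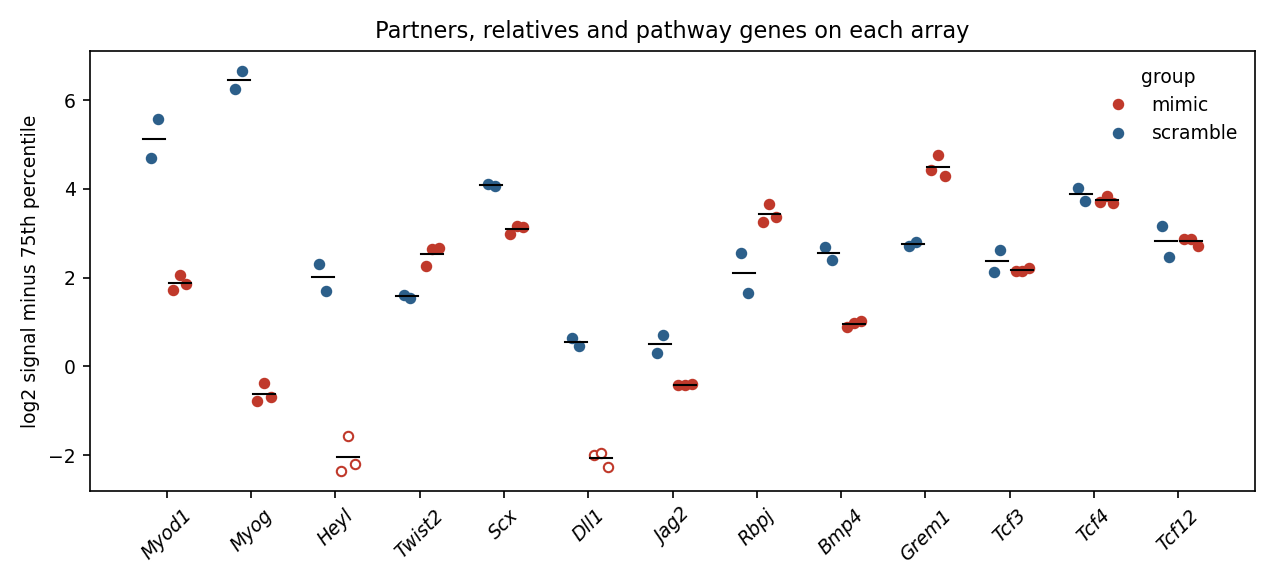
Level (log2 signal minus the scan's 75th percentile) of partners, relatives and pathway genes on the 3 mimic arrays (red) and 2 scramble arrays (blue), with black bars at the group means and open points where no scan of that group was well above background. Heyl and Dll1 are open on the mimic arrays, Twist2, Rbpj and Grem1 lie higher with the mimic, and the arrays of Tcf3, Tcf4 and Tcf12 overlap.

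Notch signalling feeds the Hes and Hey genes: ligands on one cell activate receptors on the next, and the released receptor fragment joins RBPJ on DNA. Of 28 Notch pathway genes 18 were measured, 2 were called higher and 3 lower, and the median difference was −0.19. The shares called over all genes tested were 5.86% higher and 3.88% lower. Among ligands, Dll1 had a level of 0.63 and 0.46 on the scramble arrays and was well above background on no mimic scan, where it read −1.996, −1.96 and −2.27. It was at least 3.46-fold lower (adjusted p 0.000155 in limma, with mimic readings at background) and was called in 20 of 21 other settings. Jag2 fell by 0.92 ± 0.21 (SE; adjusted p 0.029 in limma; called in 11 of 21 other settings, lost without mimic array 1, 2 or 3 or scramble array 2). Jag1 was the fifth call, at 0.94 ± 0.24 (SE; adjusted p 0.0484), but it was called in only 5 of 20 other settings, was lost without mimic array 1, 2 or 3 or scramble array 2, and was well above background on 1 of 4 scramble scans.

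The receptors Notch2 and Notch3 had differences of 0.53 ± 0.25 and −0.0036 ± 0.21 (SE; adjusted p 0.235 and 0.994 in limma). Rbpj, the DNA-binding partner, had a level of 3.25, 3.65 and 3.37 on the mimic arrays and of 2.55 and 1.65 on the scramble arrays. The groups did not overlap, though the 2 scramble arrays lay farther apart than the 3 mimic arrays. It was 2.50-fold higher (1.32 ± 0.29, SE; adjusted p 0.027 in limma), in 15 of 22 other settings, and the call was lost without mimic array 1, 2 or 3 or scramble array 2. Dtx4, a Deltex ubiquitin ligase of the pathway, was 2.04-fold lower (−1.03 ± 0.19, SE, adjusted p 0.0139 in limma). Its call held in 16 of 22 other settings. It was lost without mimic array 1, 2 or 3, with array-median scaling and without the background filter.

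BMP signalling feeds the Id genes through SMAD1, SMAD5 and SMAD4. Of 28 BMP and SMAD genes 14 were measured, 1 was called higher and 3 lower, and the median difference was 0.053. Among all genes tested 5.86% were called higher and 3.88% lower. Bmp4, a ligand, had a level of 0.89, 0.98 and 1.01 on the mimic arrays and of 2.69 and 2.41 on the scramble arrays, 3.00-fold lower (adjusted p 0.00168 in limma). Grem1, a secreted BMP antagonist, had a level of 4.43, 4.76 and 4.29 against 2.72 and 2.80, 3.33-fold higher (adjusted p 0.00164 in limma). Hjv, a BMP coreceptor of muscle and liver, was well above background on all scramble scans and on no mimic scan, at least 7.76-fold lower (adjusted p 0.000404 in limma, with mimic readings at background). Acvr2a, a type II receptor, fell by 1.08 ± 0.20 (SE, adjusted p 0.0144 in limma), with 1 of 6 mimic scans well above background. It was called in 12 of 21 other settings. The call was lost without mimic array 1, 2 or 3, with array-median scaling, with normexp background correction and without the background filter. It was also lost on scan day 2 alone and with the array as a random block. The signal transducers Smad1, Smad5 and Smad4 had differences of 0.16 ± 0.19, 0.14 ± 0.29 and 0.42 ± 0.26 (SE; adjusted p 0.649, 0.804 and 0.339 in limma).

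Other inhibitors of muscle genes and corepressors, a list of 19, had 15 measured, 0 called higher and 1 lower. The call was Zeb1, a zinc-finger repressor that also binds E-boxes, at −0.89 ± 0.20 (SE, 1.86-fold lower, adjusted p 0.028 in limma). It held in 14 of 22 other settings. It was lost without mimic array 1, 2 or 3, with array-median scaling, without the background filter, on scan day 2 alone and with the slide row as a block. The median difference of this list was 0.046.

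**Figure D4:**
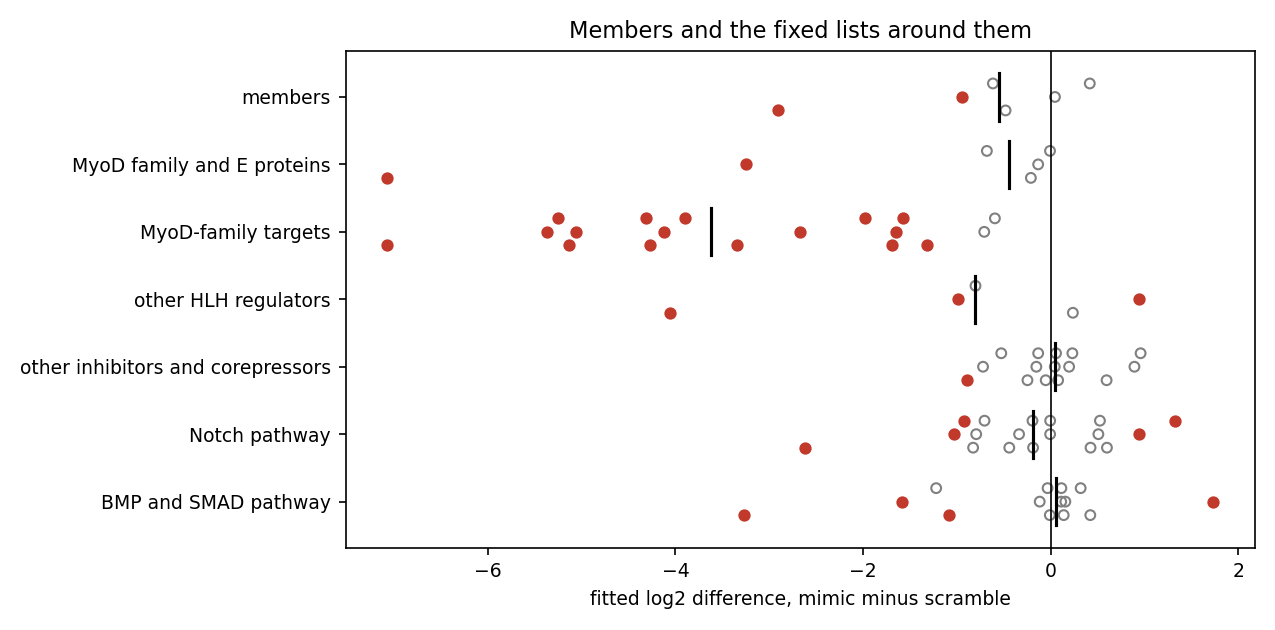
Fitted log2 difference (mimic minus scramble) of each measured gene in the members and 6 lists around them, red where called and open grey where not, with a black line at the list's median. The medians run from −3.62 for the MyoD-family targets to 0.053 for the BMP and SMAD genes, with the members at −0.55.

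Some markers of cell types differed between the groups. Of 8 myoblast markers 6 were measured and 4 were called lower (Myod1, Des, Cdh15 and Itga7), and for Pax7 no scan was well above background. The other measured myoblast markers, Ncam1 and Vim, had differences above 0 and were not called (0.25 ± 0.24 and 0.20 ± 0.21, SE, adjusted p 0.558 and 0.604 in limma). For Ncam1, 2 other measured probes had the opposite sign. The summed level of the myoblast list was 8.02 to 8.17 on the mimic arrays and 8.67 to 8.84 on the scramble arrays. A summed level is log2 of the sum of the measured genes' linear levels on an array, so the brightest probes weigh most. Of 6 adipocyte markers 2 were measured and Pparg was called higher (1.24 ± 0.21, SE, adjusted p 0.00949 in limma). Cebpa was not called (0.56 ± 0.32, SE, adjusted p 0.314 in limma). The summed level was 4.22 to 4.49 on the mimic arrays and 2.98 to 3.27 on the scramble arrays. That lay close to Pparg alone, at 4.17 to 4.46 and 2.87 to 3.23. No scan was well above background for Adipoq, Fabp4, Plin1 or Cfd. Of 10 osteoblast markers 3 were measured and Bglap2 was called higher (2.79 ± 0.20, SE, adjusted p 0.000112 in limma). Spp1 and Col1a1 were not called and differed in sign (0.47 ± 0.43 and −0.46 ± 0.27, SE, adjusted p 0.533 and 0.321 in limma). For Alpl, Sp7, Ibsp, Dmp1 and Dlx5 no scan was well above background, and Runx2 and Bglap did not pass the background filter. The summed levels of the osteoblast list overlapped between the groups (5.92 to 6.87 and 6.20 to 6.42). Of 7 leukocyte markers 3 were measured and 0 called, with summed levels of 4.13 to 4.33 and 4.06 to 4.10, and of 4 endothelial markers 1 was measured and 0 called, with 1.46 to 1.91 and 1.14 to 1.52. The part of these marker differences in the differences of Hey1, Id3 and the other members was not tested.

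**Figure D5:**
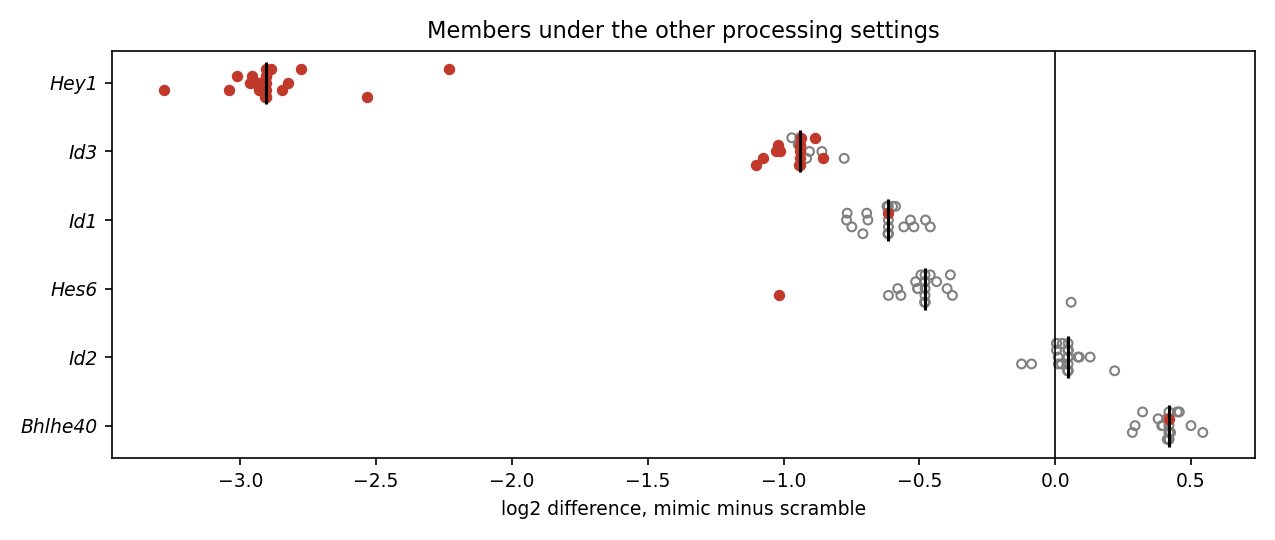
Log2 difference (mimic minus scramble) of the 6 measured members under the 22 other processing settings, red where called and open grey where not, with a black bar at the value reported above. Hey1 is red throughout, Id3 is red in 14 settings, Hes6 runs from −1.02 to 0.059, and Id2 crosses 0.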

How the data were processed

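RNA of 6 samples labelled mimic and 4 labelled scramble was measured on 1-colour Agilent arrays. The deposited scanner files hold linear spot intensity, already corrected for background by Agilent Feature Extraction (version 12.0.0.7 in the file headers, 10.7.3.1 per the submitters' processing notes), and the deposited series matrix holds intensity values that were used as an alternative. Control spots and outlier-marked spots were left out, spots of a probe averaged, log2 taken and the scan's 75th percentile over probes subtracted. The 2 scans of each of 5 arrays were averaged. A probe was kept when well above background on at least 4 of 10 scans, and the brightest kept probe stood for its gene. Groups were fitted with lmFit and eBayes (limma 3.58.1 in R 4.3.3, prior degrees of freedom 5.26, residual 3) and adjusted by Benjamini-Hochberg. The number of arrays, 5, limits the precision.

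The members, lists and tests were chosen with earlier results of these data known. The genes named are the 10 members, per list the 4 called genes with the lowest p (fewer where fewer passed), and the partners Myod1, Myf5, Myog, Tcf3, Tcf4 and Tcf12 and relatives Bhlhe41, Hey2, Heyl and Twist2 whatever their values. Chosen after their values were seen were Hes7, Myf6, Ckm, Chrna1, Chrng, Tnni1, Jag1, Notch2, Notch3, Smad1, Smad5, Smad4 and the marker genes. Where no scan of a group was well above background, a bound is given: the brighter group's mean over the dim group's mean of floors, an array's floor being its lowest signal marked well above background, or the probe's own signal if that is higher. Alternatives covered scaling, background, filter, probe choice, scan day, the 10 labelled samples, slide row, each array left out and the series matrix. Same-numbered samples were not taken as pairs. Correlations of their deviations from the group means ran from −0.28 to 0.19. These correlations cannot decide on pairing, because the numbers count scans and the scramble group had only 2 arrays.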

Additional observations from a re-analysis of the deposited data

How the results depend on the processing

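Under 22 other settings Hey1 kept its call in all and Id3 in 14. The number of members called lower was 1 instead of 2 with array-median scaling, with no filter, with the mean of all probes and no filter, and with the slide row as a block, and it ran from 1 to 2 when 1 array was left out. The number called higher was 1 instead of 0 with the 10 labelled samples (Bhlhe40), where the number called lower was 3 (Id1 added), and 0 in each fit without 1 array. The sign of Id2 turned to −0.087 with the percentile over bright probes, and it ran from −0.12 to 0.22 when 1 array was left out, with Hes6 from −1.02 to 0.059. Leaving out scramble array 2 kept the count at 2 only because Hes6 was called in place of Id3. With the replicate number as a block (10 labelled samples) 2 members were called lower and 0 higher, so that against the same 10 samples without the block Id1 (adjusted p 0.0133 to 0.0755) and Bhlhe40 (0.0109 to 0.113) lost their calls in limma. The bright-probe percentile moved the median of all genes from 0.093 to −0.041 and the share of calls that were higher from 60.2% to 50.4%. Over all genes, 802 higher and 530 lower calls became 483 and 278 with array-median scaling, 205 and 202 with no filter, 219 and 229 with the mean of all probes and no filter, 457 and 353 with the slide row as a block, 2517 and 1637 with the 10 labelled samples and 1417 and 919 with the replicate block added. Without 1 array they ran from 345 to 2460 higher and from 275 to 1211 lower, the highest without scramble array 1. A fit without a scramble array leaves 1, which is assumed to vary like the mimic arrays. Where a cause is not named, the cause was not tested. The 5 arrays, 1 probe per member and 4 members at background limit what could be seen.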
